A study of Homo sapiens with 6 samples.

Results

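The zinc finger genes of chromosome band 19p12 are a tandem array of related genes close to the centromere of chromosome 19. A list of 35 genes given as members of this array was examined out of 58037 gene IDs in the count tables. The members were chosen by gene name and chromosomal place, with the symbol column of the merged count table as the key. Band limits were not checked, so genes at the telomeric end of the list, such as ZNF101 and ZNF14, may lie in the neighbouring band. The rule holds no cut on a measured value, but the list was drawn up with earlier results of these data known, so the differences between groups given here are a description of the members and carry no test of the list. The symbol column held 33 of the 35. ZNF738 and ZNF66 were taken from the tables of the single libraries by their Ensembl IDs.

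Most genes of this array code for KRAB zinc finger proteins, the largest family of transcription factors in mammals. Such a protein reads DNA with a row of C2H2 fingers and, through its KRAB domain, recruits the co-repressor TRIM28 (KAP1), which brings the histone methyltransferase SETDB1 and heterochromatin proteins. Many members of the family bind and silence transposable elements, and ZNF91 and ZNF93 are known for binding SVA and LINE-1 elements. The genes arose by repeated duplication in primates, so neighbours resemble each other in sequence.

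The cells were OVCAR8, an established human ovarian carcinoma line, grown with serum, kept without serum for 16 hours and then either left untreated (3 libraries, numbered 2 to 4) or given recombinant human relaxin-2, a peptide hormone of the insulin superfamily, at 50 ng/mL for 8 hours (3 libraries, numbered 1 to 3). Total RNA was sequenced on a stranded protocol. The labels speak of triplicates without saying that these were separate cultures, so the spread between libraries may be technical. Reads assigned to genes ran from 11939148 in relaxin-2 replicate 2 to 22426768 in untreated replicate 3, and the share of multimapping reads was 27.0% in relaxin-2 replicate 2 against 5.31% to 6.19% in the other libraries. Of 7 ovarian carcinoma markers 6 were kept by the filter on low counts. The exception was MUC16, with 4 reads, and the summed level of the 7 was 1490 to 2540 CPM (counts-per-million of the reads assigned to genes) untreated and 2340 to 2830 CPM after relaxin-2. Most of this sum came from keratins, with KRT18 at 833 to 1440 CPM and KRT8 at 454 to 1060 CPM over the 6 libraries. PAX8 had 39.2 to 70.7 CPM and WT1 2.61 to 4.17 CPM. Fibroblast markers summed to 10.8 to 19.1 CPM untreated and 18.2 to 19 CPM treated, with DCN at 0 reads. Mesothelial markers summed to 2.84 to 3.75 and 4.09 to 4.69 CPM, endothelial markers to 0.99 to 1.44 and 1.39 to 2.27 CPM, and leukocyte markers to at most 0.174 CPM, with CD3E at 0 reads.

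The array is shown first by its promoters, whose sequences resemble each other. RefSeq windows on GRCh38.p14, from 250 bases before to 50 bases after a gene's start, were matched for 27 of the 35 members. ZNF98, ZNF99, ZNF253, ZNF506, ZNF676, ZNF728, ZNF729 and ZNF738 were not matched. In ZNF43, ZNF254, ZNF429 and ZNF730 the window lay 8920 to 53782 bases from the gene start in GENCODE 29. The windows below belong to the 2 members with the highest level per length (ZNF714 and ZNF431), to a member with a low level (ZNF492) and to the silent member (ZNF486). Capitals mark matches, on either strand, to CCAATC (which holds the box bound by NF-Y), to TTCCGG (which holds the core bound by ETS factors) and to CTTTGTCTC, a stretch that lies nearer the gene start in all 4. The 3 motifs were picked after these windows had been read, and none of the marked matches overlaps another. The windows are ZNF714 (chr19:21081953-21082252, plus strand), ZNF431 (chr19:21141790-21142089, plus), ZNF492 (chr19:22634074-22634373, plus) and ZNF486 (chr19:20166964-20167263, plus).
ZNF714: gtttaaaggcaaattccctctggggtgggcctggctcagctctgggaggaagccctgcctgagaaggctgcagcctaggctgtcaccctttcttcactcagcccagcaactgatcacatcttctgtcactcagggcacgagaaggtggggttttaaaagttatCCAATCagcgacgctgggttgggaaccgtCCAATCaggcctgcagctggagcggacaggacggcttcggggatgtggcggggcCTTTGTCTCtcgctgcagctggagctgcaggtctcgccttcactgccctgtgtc
ZNF431: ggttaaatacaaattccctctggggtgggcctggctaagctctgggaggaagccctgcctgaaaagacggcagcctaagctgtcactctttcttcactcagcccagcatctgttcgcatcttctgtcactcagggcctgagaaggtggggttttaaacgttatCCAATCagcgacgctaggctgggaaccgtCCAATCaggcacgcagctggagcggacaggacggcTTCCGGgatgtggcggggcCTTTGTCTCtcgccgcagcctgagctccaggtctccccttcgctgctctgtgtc
ZNF492: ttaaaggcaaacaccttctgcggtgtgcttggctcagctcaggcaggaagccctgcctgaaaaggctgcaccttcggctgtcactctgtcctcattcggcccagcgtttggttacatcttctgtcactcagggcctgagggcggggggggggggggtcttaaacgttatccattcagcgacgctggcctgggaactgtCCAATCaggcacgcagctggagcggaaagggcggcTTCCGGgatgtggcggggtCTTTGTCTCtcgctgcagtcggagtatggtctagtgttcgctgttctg
ZNF486: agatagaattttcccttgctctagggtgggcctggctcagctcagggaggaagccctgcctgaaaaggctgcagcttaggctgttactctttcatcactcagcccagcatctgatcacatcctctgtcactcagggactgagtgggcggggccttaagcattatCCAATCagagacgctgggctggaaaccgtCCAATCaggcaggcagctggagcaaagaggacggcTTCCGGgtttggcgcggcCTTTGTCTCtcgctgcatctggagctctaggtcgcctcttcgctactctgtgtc
The silent ZNF486 had the same 3 motifs as the abundant ZNF431, with 2 matches to CCAATC, 1 to TTCCGG and 1 to CTTTGTCTC in each. ZNF714 had no TTCCGG in its window, and ZNF492 had 1 match to each motif. Because the motifs were picked from these 4 windows, the match between ZNF486 and ZNF431 cannot bear on the silence of ZNF486.

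Across the array, all 27 windows held CCAATC. The motif was present in 15.1% of all 35116 RefSeq windows of the same length, in 21.5% of 279 windows of other ZNF genes on chromosome 19 and in 18.8% of 340 windows of ZNF genes elsewhere. Each member had 1 window, the one nearest its gene start, while the other sets kept every window of a gene. The windows printed above, from which the motifs were picked, are among the 27. CTTTGTCTC was in 19 of the 27 windows (70.4%), against 0.638% of all windows, 1.43% of the other chromosome 19 ZNF windows and 3.82% of those elsewhere. TTCCGG was in 21 of 27 (77.8%), against 17.2% of all windows, 48.0% of the other chromosome 19 ZNF windows and 36.8% of those elsewhere. The 5 genes nearest the telomere with a window, ZNF101, ZNF14, ZNF93, ZNF682 and ZNF90, lacked TTCCGG, as did ZNF714. The member windows had a median of 10 CG dinucleotides, against 14 over all windows and 21 in the other chromosome 19 ZNF windows.

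Expression was nearly complete across the array. With fewer than 10 reads over the 6 libraries counted as silent, 1 of 35 members was silent and 34 were kept by edgeR's filter on low counts, so no member was left between these classes. The members lay between 19668796 and 24129961 on chromosome 19 (GRCh38, GENCODE 29), all annotated as protein coding. They took 141242 reads in all, 13064 to 31833 per library, and their summed level was 1430, 1240 and 1300 CPM in untreated replicates 2, 3 and 4, and 1200, 1140 and 1090 CPM in relaxin-2 replicates 1, 2 and 3. The sums were 1320 ± 97.6 CPM untreated and 1140 ± 57.5 CPM after relaxin-2 (mean ± SD, n = 3 each), with the nearest libraries at 1240 and 1200 CPM. ZNF714 and ZNF431 alone held 49.3% of the members' reads. No sum over other genes was set beside these values, and the difference between the sums was not tested.

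The silent member was ZNF486 (ENSG00000256229, 20167228 to 20200490, plus strand). It had 3 reads in untreated replicate 4 and 0 reads in the other 5 libraries, which is 0.0264 CPM over all gene reads with an exact Poisson 95% interval of 0.00544 to 0.0772 CPM that covers counting error only. No difference between groups was detectable at this depth. On the opposite strand, its exons held 427 reads: 100, 96 and 69 in untreated replicates 2, 3 and 4, and 48, 39 and 75 in relaxin-2 replicates 1, 2 and 3. An annotated antisense gene, ENSG00000267383 (20125377 to 20321305, minus strand), runs across the whole of ZNF486 and had 2343 reads. These may include some of the 427, as the exons of both genes were not compared. The pseudogene BNIP3P16, also on the minus strand within ZNF486, had 12 reads. With unstranded counts ZNF486 had 430 reads and was kept as expressed, so its silence is seen only in the stranded column. ZNF506 and ZNF429 were the other members with more than 5% as many reads on the opposite strand as on their own, 268 beside 2193 and 200 beside 1580.

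Levels between genes were compared as CPM per kilobase of the union of annotated exons, averaged over the 6 libraries. The neighbours ZNF714 (21082159 to 21125270) and ZNF431 (21142024 to 21196053) stood above the rest of the array at 35.7 and 22.8 CPM per kb. They held 49.3% of all reads of the members, and 47.9% to 50.3% in single libraries. Among 16673 tested genes with a known length they were at the 92.9 and 87.8 percentile, while the median was 3.62 CPM per kb over all tested genes and 3.08 over the 34 expressed members. The level of ZNF714 was 40.6, 35.6 and 38.6 CPM per kb in untreated replicates 2, 3 and 4 and 34.6, 32.7 and 31.9 in relaxin-2 replicates 1, 2 and 3. That of ZNF431 was 26.5, 21.9 and 24.1 untreated and 22.6, 21.9 and 20.0 after relaxin-2. The ranges of the 2 genes over the libraries did not overlap, so their order held in every library.

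**Figure D1:**
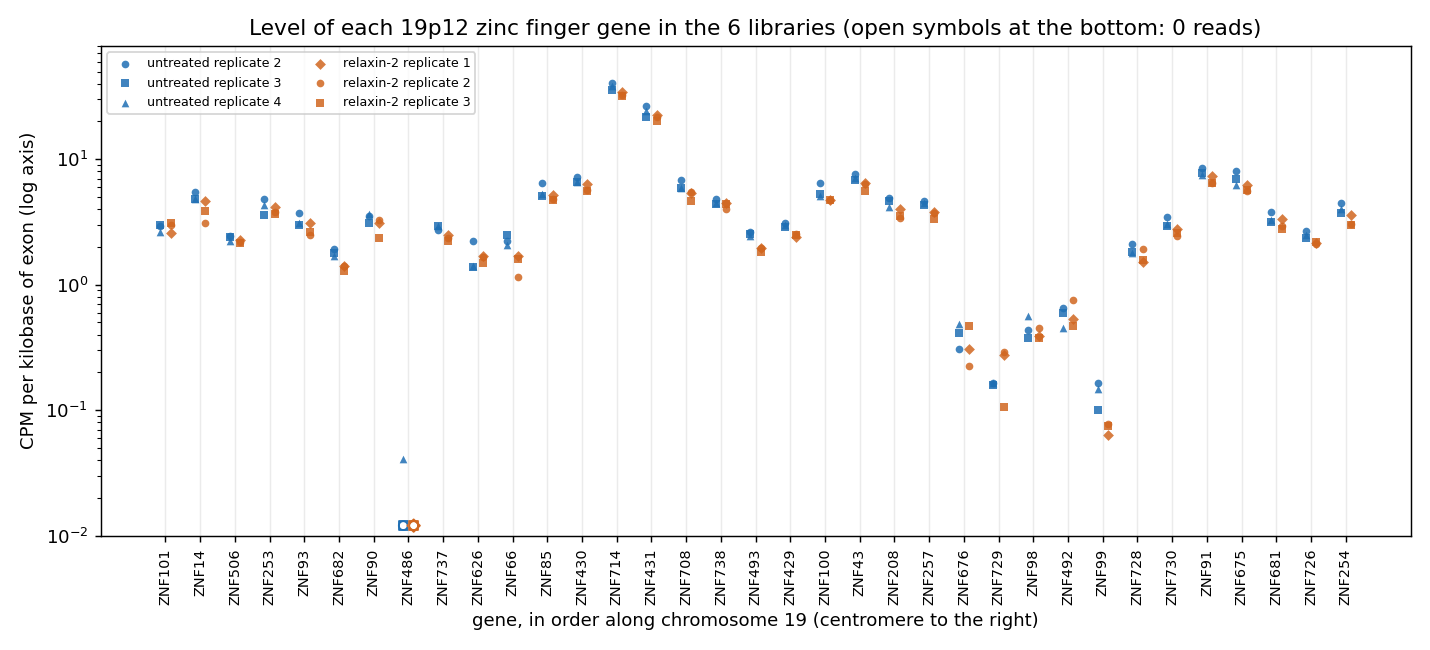
Level of each member in every library as CPM per kilobase of exon on a log axis, with the genes in chromosome order, untreated libraries in blue and relaxin-2 libraries in orange. ZNF714 and ZNF431 stand above all others, the 5 neighbours from ZNF676 to ZNF99 lie below all other expressed members, and ZNF486 has reads in 1 library only.

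Next in level came ZNF91 (23304991 to 23395560), with 8.46, 7.74 and 7.45 CPM per kb untreated and 7.32, 6.52 and 6.48 after relaxin-2. ZNF43 followed with 7.65, 6.88 and 7.05 untreated and 6.45, 6.40 and 5.62 treated. ZNF675, also known as the TRAF6 inhibitory zinc finger protein, had 8.03, 6.96 and 6.28 untreated and 6.19, 5.62 and 5.68 treated. In these 3 genes the groups did not overlap, and untreated replicate 2 was the highest library. ZNF430 had 7.19, 6.56 and 6.57 untreated against 6.40, 5.71 and 5.55 treated. ZNF708 had 6.80, 5.85 and 5.93 against 5.35, 5.50 and 4.62. In ZNF85, with 6.42, 5.05 and 5.29 against 5.17, 4.78 and 4.70, the groups overlapped. From ZNF91 down to ZNF682 (1.58 CPM per kb) no neighbour in the order stood apart: of the 34 steps between neighbouring levels in the whole order, 30 had overlapping ranges, and the other 4 were those below ZNF714, below ZNF431, between ZNF682 and ZNF492, and above ZNF486. ZNF93, the LINE-1 binding member, was in this middle group at 3.00 CPM per kb.

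The 5 expressed members with the lowest levels were also neighbours. ZNF676, ZNF729, ZNF98, ZNF492 and ZNF99 follow one another from 22179091 to 22784107 without another member between them, and had 0.105 to 0.579 CPM per kb, against 1.58 to 35.7 in the other 29. This grouping was made after the values were seen. ZNF492 had 62, 58 and 33 reads untreated and 41, 37 and 44 reads after relaxin-2. ZNF99 had 29, 18 and 20 reads untreated and 9, 7 and 13 treated. ZNF729 had 14, 14 and 11 against 19, 13 and 9, so the precision for these genes is set by few reads. ZNF723 and ZNF724, which are not on the list and lie beyond the end of this stretch, from 22832321 and from 23221599, had 97 and 1461 reads in all.

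Reads that map to several places are absent from the counts, so members with near-identical copies can be undercounted. Of all stretches of 50 bases in the annotated transcripts of ZNF98, 41.0% were also found in transcripts of a gene elsewhere, mostly ZNF492 (37.6%). The share for ZNF492 was 33.7%, mostly with ZNF98 (29.4%). In the other 33 members it ran from 0 (ZNF14) to 8.68% (ZNF729), with a median of 3.65%. With stretches of 100 bases it was 23.7% for ZNF98, 18.4% for ZNF492 and at most 0.794% in the rest. The levels of ZNF98 and ZNF492 are thus uncertain. ZNF676, ZNF729 and ZNF99 shared at most 8.68%, and ZNF714 and ZNF431 shared 4.47% and 4.39%. Where in these genes the reads fell was not examined, and whether shared sequence bears on their levels was not tested. Copies in unannotated sequence are not seen by this measure.

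Between the groups, 0 of the 34 expressed members passed the test over all 16740 genes (edgeR quasi-likelihood test, Benjamini-Hochberg adjusted p from 0.408 to 0.993 among members), as did 0% of all genes. DESeq2 and limma-voom also called 0 members. In fitted values 31 of 34 members were lower after relaxin-2 and 3 were higher, with a median log2 fold change of -0.23 (a fold of 0.854), beside 52.2% of all tested genes lower and a median of -0.01. An unadjusted p under 0.05 was reached by 15 members on the lower side, against 4.52% of all tested genes, and by 0 on the higher side, against 6.30%. In 19 of 34 (55.9%) every relaxin-2 library lay under every untreated library, against 10.5% of all tested genes. In 0 members it lay above, against 10.8%. Without untreated replicate 2 the lower count was again 19 (13.9% of all genes), and without relaxin-2 replicate 2, the library with many multimapping reads, it was 21 (13.1%). In bulk RNA, fewer cells with a transcript and less of it per cell cannot be told apart.

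**Figure D2:**
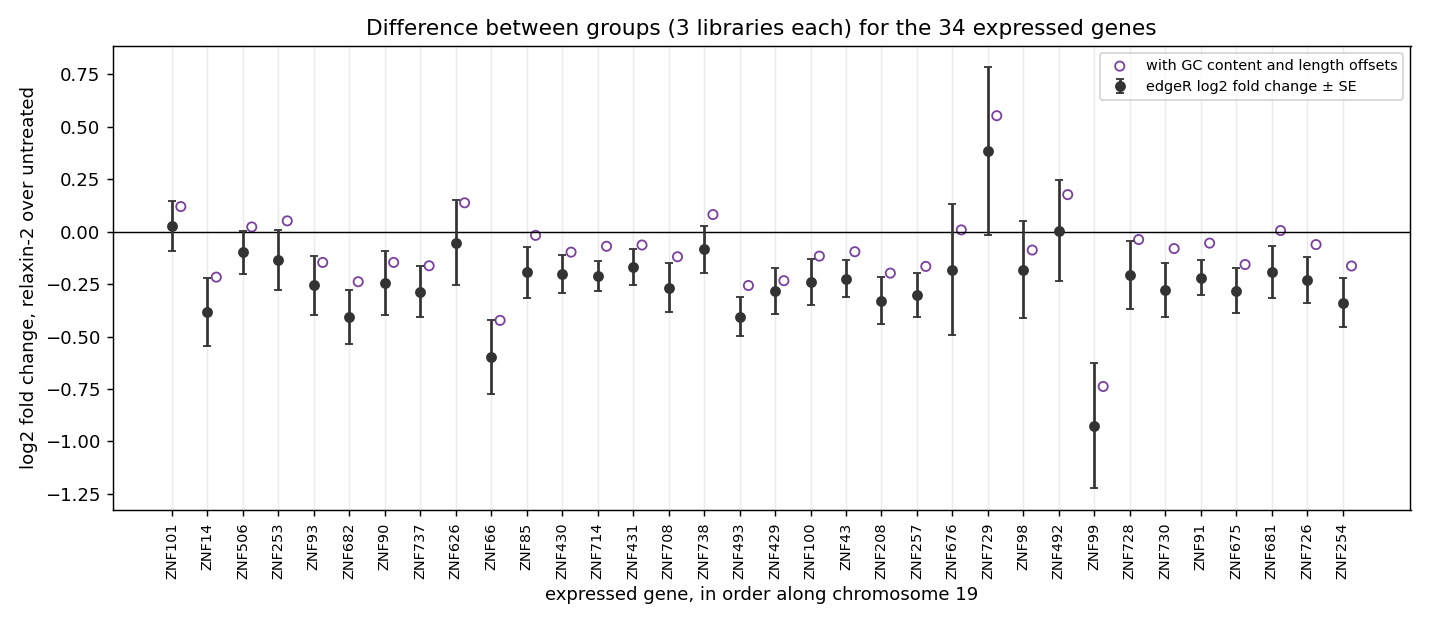
Log2 fold change of relaxin-2 over untreated libraries for the 34 expressed members in chromosome order, as edgeR fitted it (filled, with SE) and with offsets for transcript GC content and length (open). Of the 34 filled points 31 lie below 0, along the whole array, and with the offsets 25 do.

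The lowest fitted values were those of ZNF99, ZNF66, ZNF682 and ZNF493. ZNF99 had 1.31, 0.790 and 1.15 CPM untreated and 0.501, 0.610 and 0.591 CPM treated. From its 96 reads the fitted log2 fold change was -0.93 ± 0.30 (SE). ZNF66 had 6.75, 7.46 and 6.23 CPM untreated and 5.06, 3.48 and 4.82 CPM treated (-0.60 ± 0.18). In both genes all treated libraries were under all untreated ones, as they also were in the following pair. ZNF682 had 9.63, 8.91 and 8.36 against 7.01, 6.97 and 6.36 CPM (-0.41 ± 0.13). ZNF493, with more reads, had 29.2, 28.6 and 27.2 CPM untreated and 21.8, 22.0 and 20.5 CPM treated (-0.405 ± 0.094). Its group means were 28.4 and 21.4 CPM, with SDs within groups of 1.03 and 0.858 CPM (n = 3 each) and an adjusted p of 0.408 over all genes in the edgeR test. With the offsets for transcript GC content and length its log2 fold change was -0.257.

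At the other end were ZNF729, ZNF101, ZNF492 and ZNF626. ZNF729 had 0.630, 0.614 and 0.634 CPM untreated and 1.06, 1.13 and 0.409 CPM treated (0.38 ± 0.40). ZNF101, at the telomeric end of the array, had 19.4, 19.5 and 17.1 against 17.0, 19.6 and 20.5 CPM (0.03 ± 0.12). The groups overlapped in both, and in the remaining pair too. ZNF492 had 2.79, 2.55 and 1.90 against 2.28, 3.22 and 2.00 CPM (0.005 ± 0.24). ZNF626 had 14.9 CPM in untreated replicate 2, 9.35 and 9.40 in the other untreated libraries and 11.3, 11.2 and 10.0 after relaxin-2 (-0.05 ± 0.20), and without untreated replicate 2 its log2 fold change was 0.20.

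The abundant members had small values with small errors. ZNF714 had 326, 286 and 310 CPM untreated and 278, 263 and 256 CPM after relaxin-2, without overlap (-0.21 ± 0.07). ZNF431 had 375, 309 and 340 against 319, 309 and 283 CPM and the groups overlapped (-0.17 ± 0.09). ZNF91, the SVA-binding member, had 88.0, 80.5 and 77.4 against 76.1, 67.8 and 67.3 CPM, without overlap (-0.22 ± 0.08). ZNF93 had 20.8, 16.6 and 17.4 against 17.3, 13.8 and 14.8 CPM, with overlap (-0.26 ± 0.14). In the other members whose groups did not overlap the log2 fold change ran from -0.38 to -0.20. These were ZNF14, ZNF254, ZNF208, ZNF257, ZNF737, ZNF429, ZNF675, ZNF730, ZNF708, ZNF100, ZNF726, ZNF43 and ZNF430. ZNF90, ZNF728, ZNF85, ZNF681, ZNF98, ZNF676, ZNF253, ZNF506 and ZNF738 had values from -0.245 to -0.085 with overlapping groups.

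The difference followed the GC content of the transcripts over all genes. The 34 expressed members were AT-rich, with a median transcript GC content of 41.5% against 48.7% over all tested genes, and 33 of them lay in the lower 2 of 5 equal bins of GC content (20 in the lowest, 13 in the next). Of all 3335 tested genes in the lowest bin (25.7% to 42.4% GC) 89.7% had a lower fitted value after relaxin-2, with a median log2 fold change of -0.17. In the next bin 84.0% were lower (median -0.12), and in the highest bin (57.5% to 74.2% GC) 5.31% were lower (median 0.45). The members' 31 of 34 lower (91.2%) was near the 89.7% of the lowest bin. Groups that did not overlap on the lower side made up 21.4% of the lowest bin and 17.8% of the next, beside the members' 55.9%, and this gap was not tested. With offsets that remove each library's trend on GC content and length, the members' median was -0.09, with 25 lower and 9 higher, and 22 moved toward 0 by more than 1.5 times. Over all tested genes 47.9% were lower with the offsets, with a median of 0.006. The offsets are fitted in each library, so they also take out any difference between the groups that follows GC content or length. What sets the GC trend was not tested.

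**Figure D3:**
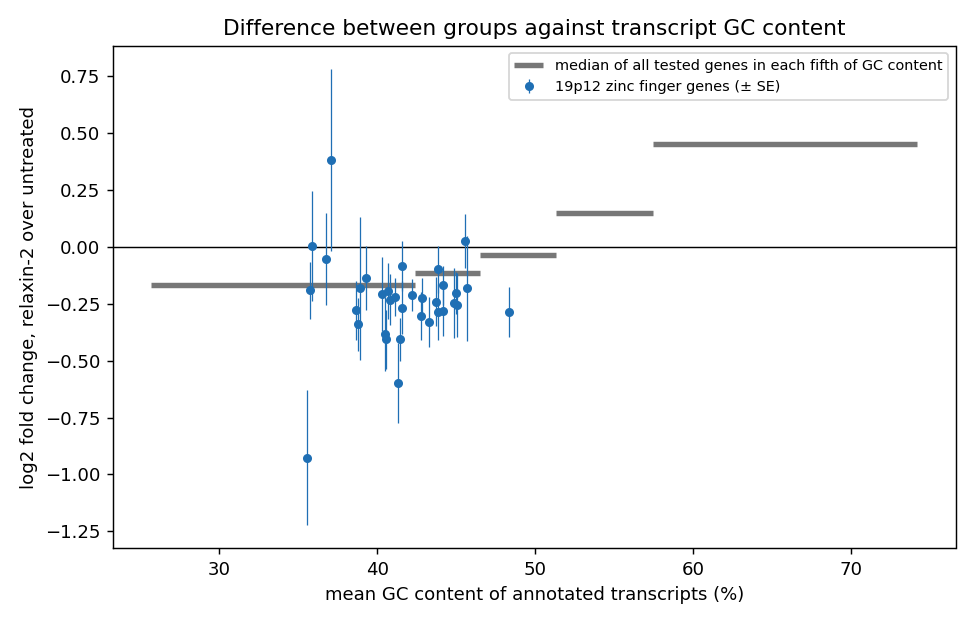
Log2 fold change of the 34 expressed members (points, with SE) against the mean GC content of their annotated transcripts, with the median of all tested genes in each of 5 equal bins of GC content as grey bars. The bars climb from -0.17 in the lowest bin to 0.45 in the highest, and 33 members lie within the lower 2 bins.

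In medians by library the members separated by group. In the lowest GC bin only untreated replicate 4 and relaxin-2 replicate 1 crossed, at -0.02 and 0.0020. The next GC bin, which also holds members, was not read by library. Whether the members differ from genes of like GC content was not tested. The median deviation of the 34 members from each gene's mean over the 6 libraries, on a log2(CPM + 0.5) scale, was 0.22, 0.05 and 0.08 in untreated replicates 2, 3 and 4 and -0.05, -0.13 and -0.17 in relaxin-2 replicates 1, 2 and 3. The tested genes of the lowest GC bin had 0.22, 0.04 and -0.02 untreated and 0.0020, -0.12 and -0.10 treated. Untreated replicate 2 was the highest library for 26 of the 34 members, and relaxin-2 replicate 3 the lowest for 17. Without untreated replicate 2 the members' median log2 fold change was -0.18, with 30 lower.

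**Figure D4:**
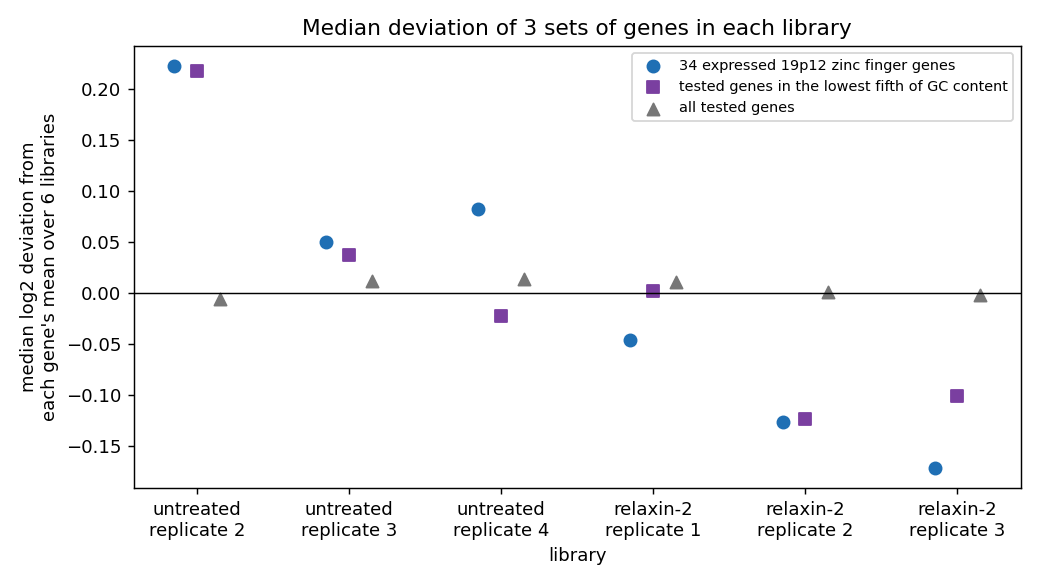
Median log2 deviation from each gene's mean over the 6 libraries, for the 34 expressed members (circles), all tested genes of the lowest GC bin (squares) and all tested genes (triangles). Circles and squares are highest in untreated replicate 2 at 0.22 and below 0 in relaxin-2 replicates 2 and 3, while the triangles stay near 0.

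Zinc finger genes not on the list had values in the same direction. Of 199 other tested ZNF genes of chromosome 19, 165 (82.9%) were lower after relaxin-2, with a median log2 fold change of -0.15 and 28.6% without overlap on the lower side. ZNF723 and ZNF724, which lie within the span of the members, are in this set. Of 240 on other chromosomes 155 (64.6%) were lower, with a median of -0.09 and 17.9% without overlap. The median transcript GC content was 46.6% and 48.6% in these sets, beside 41.5% in the members and 48.7% over all tested genes. Over all tested genes 52.2% were lower, with a median log2 fold change of -0.01. Whether the differences between these sets follow GC content was not tested. With the GC content and length offsets the medians were -0.09 for the members, -0.10 for the other chromosome 19 ZNF genes and -0.06 for the other chromosomes. Whether the array differs from them was not tested.

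A list of 28 genes was read, of co-repressors of KRAB zinc finger proteins, other chromatin genes and the zinc finger genes ZFP57 and ZNF445. Of these 27 were tested, as ZFP57, an imprinting regulator, had 0 reads, and 0 of 27 passed in edgeR (4 at an unadjusted p under 0.05, beside 1811 of all 16740 genes), with 15 higher, 12 lower and a median log2 fold change of 0.02. TRIM28, the co-repressor itself, had 72.0, 141 and 158 CPM untreated and 153, 195 and 186 CPM after relaxin-2 (0.53 ± 0.26), with untreated replicate 2 far below the other 5 libraries and the groups overlapping. SETDB1 had 32.7, 33.8 and 35.7 against 32.5, 35.3 and 35.9 CPM (0.02 ± 0.09). The 2 genes with the smallest p were UHRF1, which guides DNA methylation to replicated DNA, with 73.6, 82.8 and 92.3 against 97.3, 121 and 114 CPM (0.42 ± 0.11), and CHD3, a helicase of the NuRD complex, with 119, 124 and 147 against 151, 165 and 157 CPM (0.28 ± 0.09). The groups did not overlap on the higher side in 4 of 27 (UHRF1, CHD3, DNMT1 and EHMT1), against 10.8% of all tested genes, and on the lower side in 1 (TRIM24), against 10.5%. DNMT1, EHMT1 and TRIM24 had log2 fold changes of 0.25 ± 0.11, 0.34 ± 0.14 and -0.12 ± 0.07. The heterochromatin proteins CBX1, CBX3 and CBX5 had -0.11 ± 0.08, -0.19 ± 0.105 and -0.02 ± 0.07, with overlapping groups. The GC content of the listed genes was not set beside their values. Over all tested genes, the highest bin of GC content had a median log2 fold change of 0.45. With the GC content and length offsets the median of this list was 0.0289. Whether the higher values follow GC content was not tested.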

How the data were processed

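For each of 6 OVCAR8 libraries the authors deposited whole-number read counts by gene, made with STAR on hg38 per the submitters' processing notes. For the STAR version and the annotation: not given in the sources used here. Of the 3 count columns the reverse strand column was used, since it held 17.8 to 19.8 times the reads of the forward column. The authors' merged count table equalled it for all 24635 shared IDs and gave the symbols. Genes were placed with GENCODE 29 on GRCh38. Lines that name no gene (unmapped, multimapping, ambiguous and no-feature reads, 6.73% to 17.4%, 5.31% to 27.0%, 2.36% to 4.18% and 17.5% to 32.0%) were left out.

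Counts were filtered with edgeR's default filter (minimum count 10), scaled by TMM and compared in 1 fit of all 6 libraries with treatment as the only term, by the quasi-likelihood F test of edgeR 4.0.16 in R 4.3.3 (two-sided, adjusted over all genes, threshold 0.05). The SE is the absolute log2 fold change over the square root of F. CPM use the same scaling. Alternatives were DESeq2 1.42.0, limma-voom 3.58.1, 1 surrogate variable from sva 3.50.0, splines with 4 knots on GC content and log length, other filters, scalings and counted strands, the merged table, left-out libraries and the replicate number as a block. The test was also run on counts drawn with known changes. These draws held no GC trend between libraries, so they do not show how the test behaves under such a trend. Members and lists were chosen with earlier results of these data known. All members are accounted for. The 8 highest levels, the 4 highest and 4 lowest fold changes, TRIM28, SETDB1 and the 2 genes with the smallest p on the list of co-repressors and other chromatin genes are given by library. Other genes were chosen after their values were seen.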

Additional observations from a re-analysis of the deposited data

How the results depend on the processing

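The count of 34 expressed members was 35, 32 and 32 with unstranded counts, the merged table (which lacks ZNF738 and ZNF66) and a filter of 1 CPM in 3 libraries, and the 1 silent member became 0 with unstranded counts. The members past the threshold were 0 under every alternative run, and the smallest adjusted p of a member ran from 0.143 (no filter on low counts) to 0.776 (DESeq2). The members' median log2 fold change stayed negative, at -0.0923 with the GC content and length offsets, -0.136 with 1 surrogate variable, -0.281 with the replicate block and -0.161 with both libraries numbered 2 left out. The count without overlap on the lower side was 19 to 24 when each library was left out in turn, an alternative added after seeing the data, in which 13.1% to 22.9% of all genes had no overlap on that side. Over all genes, 120 passed with no filter, 7 with 1 surrogate variable, 3 with both libraries numbered 2 left out, 1 with the replicate block and 0 to 3 when each library was left out in turn. The cause was not tested. The median of 0.02 over the list of co-repressors and other chromatin genes was -0.0090 with library size only, 0.0636 with the replicate block and 0.0067 to 0.0557 with each library left out. The replicate numbers shared by the groups are 2 and 3. Deviations of same-numbered libraries from their group means correlated at -0.326 and 0.125 across genes. With 2 such values and no reference range, this cannot decide whether the numbers pair the libraries, and the labels do not say.

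The fitted values of 9 members, from -0.191 (ZNF681) to 0.026 (ZNF101) as reported, changed sign under at least 1 alternative. ZNF492 was -0.0435 with unstranded counts, -0.0253 with library size only and also in limma-voom, -0.071 with both libraries numbered 2 left out, -0.0736 with the replicate block and -0.184 to 0.159 over left-out libraries. ZNF101 was -0.0043 with library size only, and -0.0322 to 0.0971 over left-out libraries. ZNF626 was 0.19 without both libraries numbered 2, 0.14 with the offsets, 0.33 with the surrogate variable and -0.172 to 0.204 over left-out libraries. ZNF738 was 0.0116, 0.0809 and 0.0099 under the same 3 settings. ZNF253 was 0.0509 with the offsets and 0.0364 with the surrogate variable. ZNF506, ZNF676 and ZNF681 were 0.0221, 0.0083 and 0.0046 with the offsets, and ZNF98 was 0.018 with the replicate block. Depth limits ZNF486 and the 5 low members, whose SE reached 0.40.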
